A study of Rattus norvegicus with 10 samples.

Results

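Choline deficiency and dietary oil were combined in this experiment on rat kidney, and the question addressed here is whether the difference that choline deficiency made differed between corn oil and fish oil. The quantity is an interaction, computed for each probe set as the choline-deficient minus choline-supplemented difference under corn oil, less the same difference under fish oil. Its deficient corn-oil arm holds the kidneys labelled necrotic, and 8 of the 10 arrays of the series enter it, in 4 groups of 2. All 29214 probe sets of the array were tested.

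All animals were male weanling Wistar rats killed after 6 days on the diets, and each array holds kidney RNA from 1 pool of 3 animals. The groups were choline-deficient with corn oil and labelled necrotic (CDAMCN, "necrotic kidneys"), choline-supplemented with corn oil (CSAM, "choline-fed corn-oil kidneys"), choline-deficient with fish oil (CDAP, "deficient fish-oil kidneys") and choline-supplemented with fish oil (CSAP, "choline-fed fish-oil kidneys"). The protocol names the vegetable fat as corn and hydrogenated oils and the fish oil as menhaden oil. The other group, choline-deficient with corn oil but without the word necrotic (CDAMSN), was left out of the interaction and helps only to estimate the spread. The deficient corn-oil diet is thus divided by necrosis and the deficient fish-oil diet is not, so oil and the sorting of kidneys cannot be told apart within the interaction. How kidneys were sorted is not given in the sources used here. Because animals were pooled, the errors reflect how the 2 pools of a group differ and not how single animals do. For each probe set 1 spread was estimated over all 5 groups, so no error is that of a single group.

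Choline is a building block of phosphatidylcholine and, oxidised to betaine, a donor of methyl groups. Weanling rats deprived of it develop renal tubular and cortical necrosis, and fish oil, rich in long-chain omega-3 fatty acids, is known to lessen that lesion. In injured kidneys the tubular epithelium loses transporters and hormones of its differentiated state and makes injury proteins, while leukocytes enter the tissue.

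The kidney identity of the samples was plain in the 6 arrays that were not necrotic. Slc34a1, the phosphate transporter of the proximal tubule, lay between 13.84 and 14.03 on the log2 intensity scale in them, and Umod, the uromodulin of the thick ascending limb, between 13.38 and 13.81. Array medians ran from 7.28 to 7.43. The number of probe sets at least 2-fold apart between the 2 pools of a group was 391 for the necrotic, 166 for the choline-fed corn-oil, 271 for the deficient fish-oil and 473 for the choline-fed fish-oil kidneys.

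The choline difference under corn oil and the choline difference under fish oil had little in common. Under corn oil, necrotic kidneys differed from choline-fed kidneys at 6098 probe sets, 20.9% of those tested, after Benjamini-Hochberg adjustment in limma at 0.05. Under fish oil, deficient kidneys differed from choline-fed kidneys at 0 probe sets, 0% of those tested, although 1036 had an unadjusted limma p under 0.05. The interaction itself passed at 2548 probe sets, 8.72% of those tested, with 1117 positive (3.82%) and 1431 negative (4.9%). A positive value means that deficiency raised the level more, or lowered it less, under corn oil than under fish oil, and a value of 1 on the log2 scale is a 2-fold difference. The interaction was at least 2-fold at 1626 of the called probe sets, 669 positive and 957 negative.

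Nearly all called interactions had their difference in the corn-oil arm. Of the 2548, 2509 also passed in necrotic against choline-fed corn-oil kidneys, 1086 higher and 1423 lower in the necrotic ones. Among the 1117 positive calls the median difference was 1.07 under corn oil and 0.0036 under fish oil. Among the 1431 negative calls it was -1.16 and 0.0366. The fish-oil difference was within 0.5 of 0 on the log2 scale for 2493 of the called probe sets, or 97.8%. That share was not computed over all probe sets, so it does not set the called ones apart. Both necrotic arrays lay outside the range of the other 6 arrays for 2428 of the called probe sets (95.3%), against 37.3% of all probe sets. These simple differences and ranges share arrays with the interaction, so they describe it and are in part fixed by how the probe sets were called. At a further 3589 probe sets necrotic and choline-fed corn-oil kidneys differed while the interaction did not pass.

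**Figure D1:**
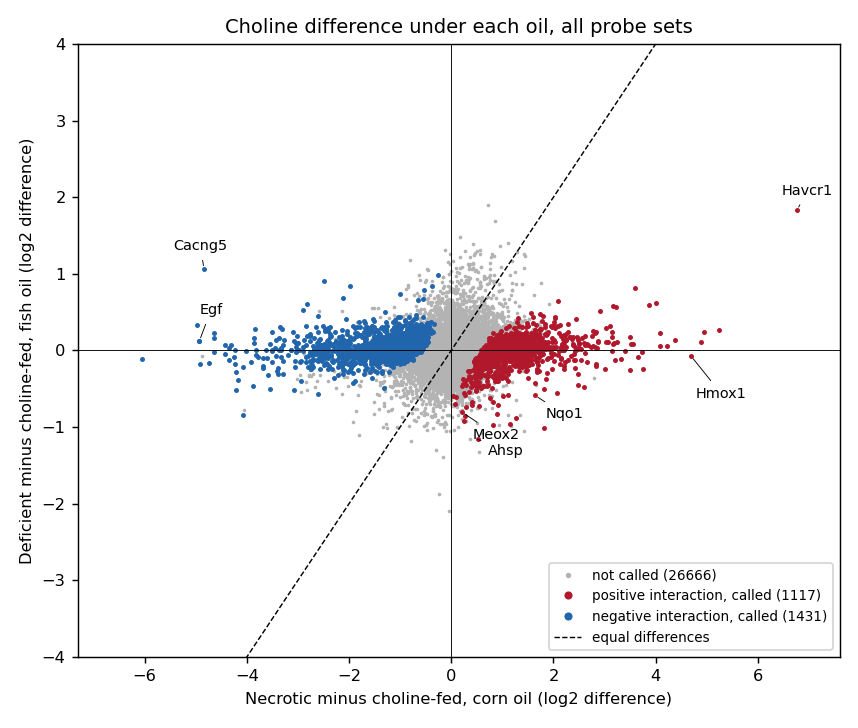
Each point is 1 probe set, with the necrotic minus choline-fed log2 difference under corn oil on the horizontal axis and the deficient minus choline-fed log2 difference under fish oil on the vertical axis. The 1117 positive and 1431 negative called interactions, in colour, spread along the corn-oil axis and stay near 0 on the fish-oil axis, with Havcr1 at 6.77 and 1.83 among the exceptions.

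A fit without 1 array leaves 1 pool in a group and has less precision. Calls lost in such fits, here and below, therefore do not single out the pool left out. The number of calls fell whichever array was left out. It was 1022 without pool 1 and 955 without pool 2 of the choline-fed corn-oil kidneys, 1246 and 1147 without pool 1 and pool 2 of the deficient fish-oil kidneys, and 1472 without pool 2 of the choline-fed fish-oil kidneys. All 2548 kept their sign in each fit that left out 1 array, and 819 of them, 304 positive and 515 negative, passed in all 8 such fits. Centring each array on its median moved the median interaction over all probe sets from 0.0755 to -0.0364 and the split from 1117 positive and 1431 negative to 818 and 1670. In whole tissue, fewer cells of a type and less RNA per cell cannot be told apart, and this holds for every gene group that follows.

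Of the 29214 probe sets, 15310 carried 1 gene symbol and named 14506 genes, each represented by its probe set of highest mean. Of these genes, 771 had a positive call (5.32%) and 1101 a negative one (7.59%), with a median interaction of 0.0449. The gene groups below are read against these shares.

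Markers of tubular injury were higher in the necrotic kidneys, with no called difference between the fish-oil groups. Of 22 measured genes of this group, 19 had positive interactions and 0 negative, with a median of 1.70. The median difference was 1.89 under corn oil and 0.14 under fish oil. Havcr1, which encodes the injury receptor KIM-1 of the proximal tubule, stood at 13.24 and 13.53 in the necrotic pools, 6.67 and 6.56 in the choline-fed corn-oil pools, 9.30 and 7.22 in the deficient fish-oil pools, and 6.49 and 6.37 in the choline-fed fish-oil pools. The necrotic pools were far above all others, and both deficient fish-oil pools were also above both choline-fed groups, pool 1 by much more than pool 2. The Havcr1 interaction was 4.94 ± 0.85 (SE, adjusted p = 0.0109), and its fish-oil difference of 1.83 ± 0.60 did not pass (adjusted p = 1).

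Lcn2, an iron-scavenging lipocalin shed by injured tubules, was also highest in the necrotic pools. It was 13.27 and 13.00 in the necrotic pools, 9.56 and 9.50 in the choline-fed corn-oil pools, 10.26 and 9.34 in the deficient fish-oil pools, and 8.89 and 9.07 in the choline-fed fish-oil pools. Its interaction was 2.78 ± 0.44 (adjusted p = 0.00721), with the deficient fish-oil pools again above the choline-fed fish-oil pools without overlap. Timp1, an inhibitor of matrix proteases, and the chaperone clusterin (Clu) had interactions of 2.59 ± 0.42 and 2.54 ± 0.42, and Clu had no fish-oil difference to speak of at 0.07 ± 0.30. The adhesion molecule Vcam1 was at 0.20 ± 0.34 and the keratin Krt20 at 0.30 ± 0.26, neither called. The mean level of the group was 9.80 in pool 1 of the deficient fish-oil kidneys, 9.43 in pool 2, and between 9.31 and 9.47 in the 4 choline-fed pools. The group's positive calls fell to 10 without either choline-fed corn-oil pool and to 11 without pool 2 of the choline-fed fish-oil kidneys.

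**Figure D2:**
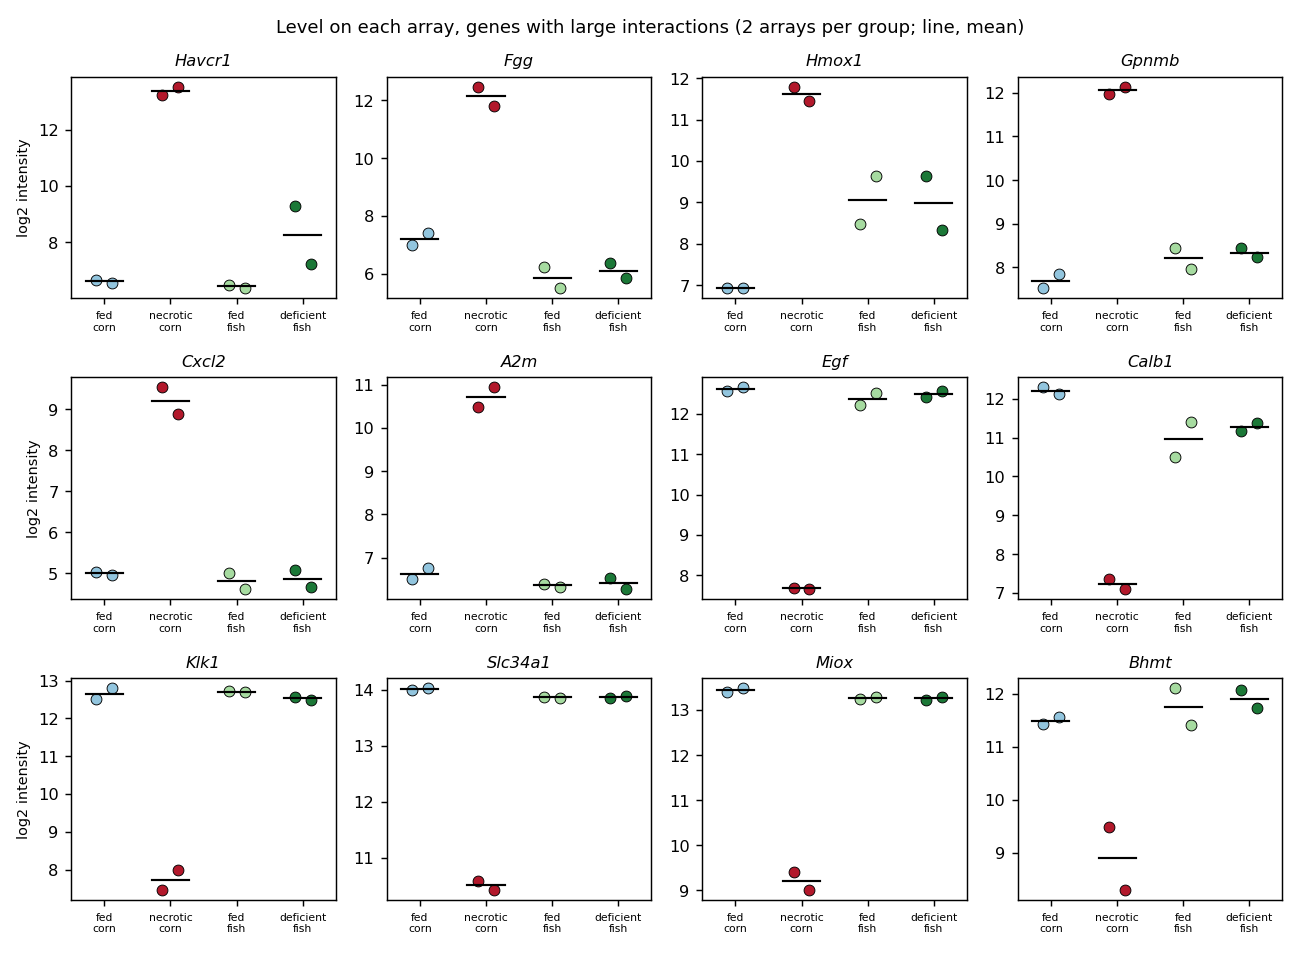
Log2 intensity of 12 genes on each of the 8 arrays, with a line at each group mean, for choline-fed corn-oil, necrotic, choline-fed fish-oil and deficient fish-oil kidneys. The necrotic points stand apart from the other 6 in every panel, above them for Havcr1, Fgg, Hmox1, Gpnmb, Cxcl2 and A2m and below them for Egf, Calb1, Klk1, Slc34a1, Miox and Bhmt.

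Many differentiated genes of each tubule segment were lower in the necrotic kidneys, with no called difference between the fish-oil groups. Of 52 measured proximal tubule genes, 37 had negative interactions and 1 positive, with a median of -1.51. Slc34a1 was 10.58 and 10.43 in the necrotic pools, 14.00 and 14.03 in the choline-fed corn-oil pools, 13.84 and 13.88 in the deficient fish-oil pools, and 13.86 in each choline-fed fish-oil pool. Only the necrotic pools were low, and the Slc34a1 interaction was -3.51 ± 0.16 (adjusted p = 5.1e-05). Its renal paralog Slc34a3 had an interaction of -4.01 ± 0.29. Miox, the first enzyme of inositol breakdown, was 9.40 and 9.02 in the necrotic pools and between 13.23 and 13.48 in the other 6 pools, an interaction of -4.23 ± 0.22 (adjusted p = 8.1e-05).

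Acmsd, which diverts tryptophan carbon away from NAD synthesis, had an interaction of -4.58 ± 0.36, and the androgen-regulated kidney protein Kap one of -4.13 ± 0.62. The sodium-glucose transporter Slc5a2 (-2.57 ± 0.16), the endocytic receptor megalin (Lrp2, -1.62 ± 0.23) and the water channel Aqp1 (-1.35 ± 0.17) were also called, while megalin's partner cubilin (Cubn) was at -0.33 ± 0.17 and was not. Cyp24a1, which inactivates vitamin D, was the 1 proximal tubule gene with a positive interaction call: 12.54 and 11.77 in the necrotic pools against 9.61 to 10.47 in the other 6, an interaction of 2.93 ± 0.48 (adjusted p = 0.00819). Cyp27b1, which activates vitamin D, was at -1.36 ± 0.42 and missed the threshold (adjusted p = 0.0857).

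Among the 15 largest negative interactions with 1 symbol were further genes of the tubule: the calcium channel subunit Cacng5 (-5.90 ± 0.62), the folate hydrolase Folh1 (-4.87 ± 0.36), regucalcin (Rgn, -4.81 ± 0.55), the medium-chain acyl-CoA synthetase Acsm3 (-4.62 ± 0.20), the nuclease Dnase1 (-4.50 ± 0.21), Spp2 (-4.39 ± 0.37), the histamine-inactivating enzyme Hnmt (-4.38 ± 0.41), the organic anion transporter Slco1a6 (-4.38 ± 0.44) and Ddc, which makes dopamine in the proximal tubule (-4.22 ± 0.31). Acsm3 was 6.37 and 6.22 in the necrotic pools and 10.70 to 11.06 in the other 6. Cacng5 had another shape: its deficient fish-oil pools also lay above its choline-fed fish-oil pools, a difference that did not pass.

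Distal genes fell too. In the thick ascending limb group 7 of 13 genes had negative calls and 0 positive (median -1.003). Egf, the growth factor precursor made there and in the distal tubule, was 7.68 and 7.67 in the necrotic pools, 12.56 and 12.65 in the choline-fed corn-oil pools, 12.42 and 12.56 in the deficient fish-oil pools, and 12.23 and 12.51 in the choline-fed fish-oil pools. The 6 other pools overlapped, and the Egf interaction was -5.05 ± 0.24 (adjusted p = 5.1e-05). Umod had an interaction of -3.36 ± 0.18, and the calcium-sensing receptor Casr one of -2.71 ± 0.26. The sodium-potassium-chloride cotransporter Slc12a1 was at -1.003 ± 0.18 (adjusted p = 0.0119), a call that was lost without either choline-fed corn-oil pool or without pool 2 of the deficient fish-oil kidneys (adjusted p up to 0.0573).

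In the distal convoluted and connecting tubule group, 8 of 12 genes had negative calls and 0 positive (median -1.90). The calcium-binding calbindin Calb1 was 7.35 and 7.11 in the necrotic pools, 12.29 and 12.13 in the choline-fed corn-oil pools, 11.17 and 11.39 in the deficient fish-oil pools, and 10.50 and 11.41 in the choline-fed fish-oil pools. Necrotic pools were lowest by a wide margin and the choline-fed corn-oil pools highest, giving an interaction of -5.31 ± 0.44 (adjusted p = 0.000612). The kallikreins Klk1 (-4.75 ± 0.27) and Klk1b3 (-4.18 ± 0.14), proteases that release kinins, and the thiazide-sensitive cotransporter Slc12a3 (-3.40 ± 0.21) were called as well, and cross-hybridisation between the 2 kallikrein probe sets was not tested. The co-receptor klotho (Kl) had an interaction of -2.51 ± 0.24. Pvalb, a marker of the early distal convoluted tubule, was near 5 to 6 in every pool and was not called (-0.32 ± 0.25).

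The collecting duct group had 14 negative and 0 positive calls among 23 genes (median -1.22). The ammonia transporter Rhcg (-2.20 ± 0.15), the proton pump subunit Atp6v1b1 (-2.14 ± 0.20) and the chloride-bicarbonate exchanger Slc26a4 (-2.12 ± 0.33) were called, as was the vasopressin receptor Avpr2 (-1.74 ± 0.22). The water channels Aqp2 (-1.46 ± 0.41, adjusted p = 0.0648) and Aqp3 (-0.35 ± 0.41) were not. Podocyte genes gave 3 negative calls of 11 (median -0.34) and endothelial genes 4 of 16 (median -0.37). Nephrin (Nphs1) was at -1.05 ± 0.27 and passed only without pool 2 of the necrotic or pool 1 of the choline-fed corn-oil kidneys among the fits that left out 1 array (adjusted p up to 0.147 in the others). The angiopoietin receptor Tek was at -1.06 ± 0.21 and passed only without either necrotic pool (up to 0.086). The podocyte calls numbered 0 or 1 without any 1 of the 8 arrays, and the endothelial calls 0 to 2 without any choline-fed or deficient fish-oil array. The endothelial adhesion molecule Pecam1 was at -0.25 ± 0.20 and was not called.

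**Figure D3:**
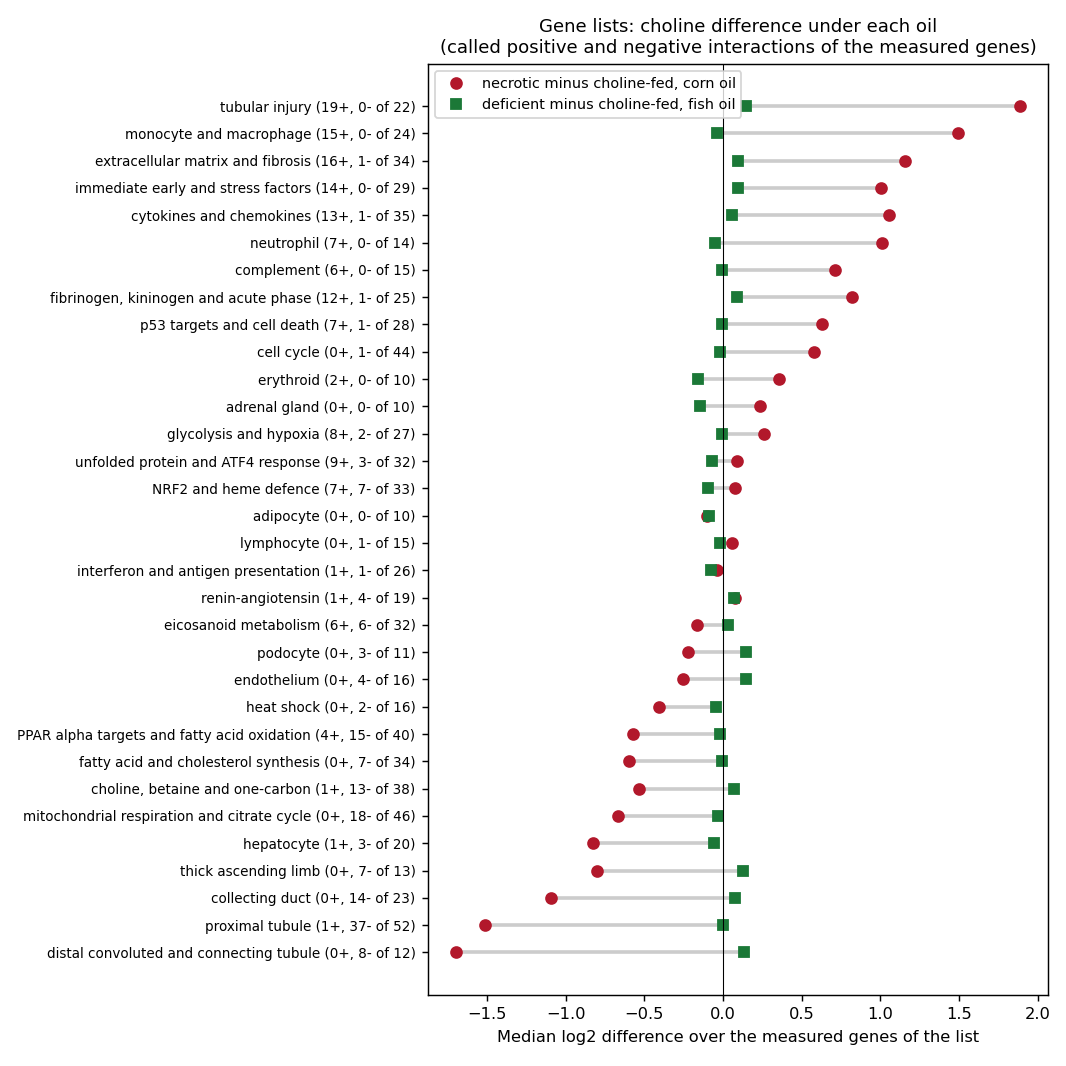
Median log2 difference over the measured genes of each of 32 gene groups, for necrotic minus choline-fed kidneys under corn oil (circles) and deficient minus choline-fed kidneys under fish oil (squares), with called positive and negative interactions beside each name. The circles run from -1.70 for the distal convoluted and connecting tubule to 1.89 for tubular injury, and the squares stay between -0.16 and 0.15.

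Fibrinogen and a set of acute phase proteins, best known as products of the liver, were strongly higher in the necrotic kidneys under corn oil. Of 25 genes of this group, 12 had positive calls and 1 negative (median 0.66). That median was 1.13 without pool 2 of the necrotic kidneys and 1.51 over the 19 members among the brighter 50% of probe sets. Fgg, the fibrinogen gamma chain, was 12.47 and 11.82 in the necrotic pools, 6.999 and 7.40 in the choline-fed corn-oil pools, 6.36 and 5.84 in the deficient fish-oil pools, and 6.22 and 5.50 in the choline-fed fish-oil pools. The necrotic pools were above all others and the 2 fish-oil groups overlapped below the choline-fed corn-oil pools, an interaction of 4.71 ± 0.51 (adjusted p = 0.0016). The beta and alpha chains followed with interactions of 3.40 ± 0.49 (Fgb) and 2.66 ± 0.25 (Fga).

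The protease inhibitor A2m, a classical acute phase protein of the rat, was 10.49 and 10.94 in the necrotic pools and 6.28 to 6.77 in the other 6, an interaction of 4.03 ± 0.37 (adjusted p = 0.000895). Lbp, which binds bacterial lipopolysaccharide, had one of 3.75 ± 0.59. Serpina3n, another protease inhibitor, had one of 4.78 ± 0.97 (adjusted p = 0.0193), but its choline-fed fish-oil pools lay at 8.64 and 6.25. The Serpina3n call was lost without pool 1 of the necrotic kidneys (adjusted p = 0.0614), pool 2 of the deficient fish-oil kidneys (0.0701) or either choline-fed corn-oil pool (0.071 and 0.0648). The kininogens Kng1 (1.69 ± 0.34) and Kng2 (1.51 ± 0.33) were called as well, while a dimmer probe set of Kng1 was at 0.55 and was not called. Kng1 lost its call without either choline-fed corn-oil pool, either choline-fed fish-oil pool or pool 2 of the deficient fish-oil kidneys (adjusted p from 0.0513 to 0.0725), and Kng2 without pool 1 of the necrotic kidneys, either choline-fed corn-oil pool or pool 2 of either fish-oil group (up to 0.0965). The negative call was Apcs, serum amyloid P, at 8.80 and 8.13 in the necrotic pools and 10.28 to 11.51 in the other 6 (interaction -2.75 ± 0.49, adjusted p = 0.0119), and without pool 1 of the choline-fed corn-oil kidneys it too missed the threshold (0.0524).

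Hepatocyte markers were not called higher as a group. Of 20 hepatocyte genes 1 had a positive call and 3 a negative one, with a median of -0.97, and their mean level was 7.10 and 6.83 in the necrotic pools against 7.28 to 8.30 in the other 6. Albumin (Alb) was 6.59 and 7.15 in the necrotic pools and 11.32 and 12.18 in the choline-fed corn-oil pools. The positive call was transferrin (Tf, 1.21 ± 0.22), and antithrombin (Serpinc1) had a negative one (-2.49 ± 0.27). Without pool 1 of the choline-fed corn-oil kidneys or pool 2 of the deficient fish-oil kidneys the Tf call was lost (adjusted p = 0.0584 and 0.0527). The 3 negative calls became 6 with only the 8 arrays fitted, and 1 without pool 2 of the choline-fed corn-oil or pool 1 of the deficient fish-oil kidneys.

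Fibrinogen and Serpina3n are textbook targets of STAT3 downstream of interleukin-6. Socs3, a STAT3-induced inhibitor, was among the positive calls (2.91 ± 0.23). So were Lif, a cytokine that signals through the same receptor subunit (2.81 ± 0.32), and Osmr, the oncostatin M receptor (2.39 ± 0.23). Interleukin-6 itself was not called, and a role of STAT3 was not tested. The RefSeq promoter windows (GRCr8, 250 bases before to 50 after the start) of 4 of the 6 acute phase genes looked up were searched on both strands for TTCNNNGAA, the core of a STAT site. It occurred in Fga at chr2:170671919-170671945 on the plus strand, in Fgb at chr2:170701080-170701108 on the minus strand, and in Serpina3n at chr6:129088259-129088287 on the plus strand, with the match in capitals and the gene's own strand shown 5′ to 3′:
Fga: ggccccacTTCCTGGAAtgtagaatct
Fgb: gactcaatgaTTCGAAGAAcgtcctgtgt
Serpina3n: tgagtccatgTTCCCAGAAatcatcccgt
The matches begin 242, 223 and 123 bases before the start site, and the Fgg window held none. The same letters occur in 8.68% of all promoter windows, in 7.59% of those of the measured genes, in 6.59% of those with a positive call and in 5.88% of those with a negative call, so these letters were no commoner among the called genes, and a match is a description, not a binding site.

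Many macrophage and neutrophil genes were higher in the necrotic kidneys, and 1 lymphocyte gene was called. Of 24 monocyte and macrophage genes 15 had positive calls and 0 negative (median 1.49), of 14 neutrophil genes 7 and 0 (median 0.99), and of 15 lymphocyte genes 0 and 1 (median 0.03). Gpnmb, a glycoprotein of lipid-laden and phagocytic macrophages, was 11.98 and 12.14 in the necrotic pools, 7.53 and 7.84 in the choline-fed corn-oil pools, 8.45 and 8.23 in the deficient fish-oil pools, and 8.45 and 7.96 in the choline-fed fish-oil pools. The fish-oil groups overlapped and the necrotic pools stood alone, an interaction of 4.24 ± 0.32 (adjusted p = 0.000405).

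The mannose receptor Mrc1 (3.44 ± 0.32), the haemoglobin scavenger receptor Cd163 (3.00 ± 0.30), the inhibitory receptors Fcgr2b (3.33 ± 0.57) and Lilrb4 (3.42 ± 0.45) and the lysosomal protein Cd68 (2.39 ± 0.28) followed. The growth factor receptor Csf1r was at 1.04 ± 0.28 and just missed (adjusted p = 0.0553). On the neutrophil side the decoy receptor Il1r2 (3.27 ± 0.35), the chemokine receptor Cxcr2 (2.37 ± 0.40) and calgranulin S100a9 (2.07 ± 0.33) were called. Myeloperoxidase (Mpo) was not (-1.17 ± 0.54). Only 4 of the 14 neutrophil genes were among the brighter 50% of probe sets, and 2 of those 4 were called when these alone were tested. The single lymphocyte call was Nkg7, a granule protein of cytotoxic cells, at -1.12 ± 0.24, and the T-cell chain Cd3e was at 0.05 ± 0.24. The Nkg7 call was lost without pool 1 of the necrotic, either pool of the choline-fed corn-oil, pool 2 of the deficient or pool 1 of the choline-fed fish-oil kidneys (adjusted p from 0.0661 to 0.109).

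Some cytokines and complement genes were also higher. Of 35 cytokines, chemokines and their regulators 13 had positive calls and 1 negative (median 1.00). The neutrophil chemoattractant Cxcl2 was 9.54 and 8.90 in the necrotic pools and 4.62 to 5.07 in the other 6, with no overlap, an interaction of 4.17 ± 0.36 (adjusted p = 0.000671). Ccl3, which attracts monocytes, had one of 2.96 ± 0.19. The monocyte attractant Ccl2 was high everywhere and was not called (1.09 ± 0.95): it was 12.87 and 12.28 in the necrotic pools, but pool 1 of each fish-oil group, at 11.36 and 11.27, was far above pool 2, at 9.50 and 9.36. Interleukin-6 (Il6) at 1.28 ± 0.41 and interleukin-1 beta (Il1b) at 1.40 ± 0.54 were not called (adjusted p = 0.0999 and 0.157). The negative call was Cxcl12 (-1.06 ± 0.24), which passed only without pool 2 of the necrotic or pool 1 of the deficient fish-oil kidneys among the fits that left out 1 array (adjusted p up to 0.108 in the others). Complement gave 6 positive and 0 negative calls of 15 (median 0.87), led by C3, its central component, at 12.84 and 12.87 in the necrotic pools and 8.13 to 9.47 in the other 6 (3.74 ± 0.56, adjusted p = 0.00601). The 6 became 3 without pool 1 of the choline-fed corn-oil or of the deficient fish-oil kidneys.

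Further large positive interactions fell outside these groups. Olr1, a receptor for oxidised lipoprotein, was 10.40 and 10.32 in the necrotic pools and 6.06 to 6.50 in the other 6 (3.86 ± 0.32), the stress-induced Niban1 had one of 3.47 ± 0.28, and the hormone precursor Trh one of 3.99 ± 0.69.

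Many matrix and early-response genes were higher in the necrotic kidneys, and cell cycle genes had 1 call. The extracellular matrix group had 16 positive and 1 negative calls of 34 (median 1.06), led by the protease Mmp7 (3.75 ± 0.46), the activin subunit Inhba (2.65 ± 0.27) and the collagen cross-linker Lox (2.42 ± 0.24), with Col1a1 at 1.78 ± 0.28. Timp3 had the negative call (-0.95 ± 0.21). Those 16 became 9 and 10 without pool 1 and pool 2 of the choline-fed corn-oil kidneys. Timp3 lost its call without any array but pool 1 of the necrotic and of the choline-fed fish-oil kidneys (adjusted p up to 0.11). Immediate early and stress factors had 14 positive and 0 negative calls of 29 (median 1.04), led by the transcription factors Atf3 (2.59 ± 0.35), Myc (2.01 ± 0.24) and Klf6 (1.39 ± 0.17). Fos (0.91 ± 0.59) and Egr1 (1.44 ± 0.48) were not called. The 14 became 8 after median centring, and without 1 array 5 for pool 1 of the choline-fed corn-oil kidneys and for pool 2 of the deficient fish-oil kidneys, 6 for pool 1 of the necrotic and pool 2 of the choline-fed fish-oil kidneys, 7 for pool 2 of the choline-fed corn-oil kidneys and 9 for pool 1 of the deficient fish-oil kidneys.

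Genes of p53 signalling and cell death had 7 positive and 1 negative calls of 28 (median 0.57), among them the kinase Plk3 (1.60 ± 0.29), Ripk3, which drives necroptosis (1.52 ± 0.34), and the inflammatory caspase Casp4 (1.17 ± 0.29). Plk3 lost its call without either choline-fed corn-oil pool or pool 2 of the deficient fish-oil kidneys (adjusted p up to 0.0549), Ripk3 without any array but pool 2 of the choline-fed fish-oil kidneys (up to 0.104), and Casp4 without any of the 8 (up to 0.155). The p53 target Cdkn1a was at 1.37 ± 0.36 and narrowly missed (adjusted p = 0.052). The 7 positive calls became 1 without either choline-fed corn-oil pool, 2 without either deficient fish-oil pool, 3 without either necrotic pool or without pool 1 of the choline-fed fish-oil kidneys, and 4 with a replicate block. Of 44 cell cycle genes 0 had a positive call and 1 a negative one, with 9 at an unadjusted limma p under 0.05 and a median of 0.55. Their mean level was 8.42 and 9.06 in the necrotic pools and 8.43 and 8.11 in the choline-fed corn-oil pools, against 7.17 and 7.09 in the deficient and 7.20 and 7.13 in the choline-fed fish-oil pools. These means of the corn-oil pools lay above those of the fish-oil pools, a difference not tested for the group. The median interaction was 0.89 without pool 1 and 0.22 without pool 2 of the necrotic kidneys. The mitotic kinase Cdk1 had a choline difference of 0.62 under corn oil and 0.19 under fish oil, and its interaction was 0.43 ± 0.45. The called gene was cyclin D1 (Ccnd1, -0.93 ± 0.19), whose call was lost without any array but the necrotic pools and pool 1 of the choline-fed fish-oil kidneys (adjusted p from 0.0506 to 0.088). Leaving out pool 1 of the necrotic kidneys gave 5 positive cell cycle calls.

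Among genes of energy and lipid metabolism negative calls outnumbered positive ones, although most members were not called. For mitochondrial respiration and the citrate cycle all 46 measured genes had a negative interaction and 18 were called (median -0.68), among them the complex I subunit Ndufs1 (-1.27 ± 0.25), Mdh1 (-1.23 ± 0.22) and the complex II subunit Sdha (-0.997 ± 0.18). Their mean level was 11.61 and 11.56 in the necrotic pools and 12.21 to 12.29 in the other 6. The calls fell steeply in each fit that left out 1 array, while the median interaction of the group stayed between -0.69 and -0.60. With only the brighter 50% of probe sets tested, 28 mitochondrial genes passed. Ndufs1 lost its call without any array but pool 2 of the necrotic and pool 1 of the choline-fed fish-oil kidneys (adjusted p from 0.0561 to 0.071), and Mdh1 and Sdha without pool 1 of the choline-fed corn-oil (0.0591 and 0.0566) or of the deficient fish-oil kidneys (0.051 and 0.0503).

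PPAR alpha, the nuclear receptor that omega-3 fatty acids activate, controls fatty acid oxidation. Of 40 genes of that programme 15 had negative and 4 positive calls (median -0.49). The peroxisomal enzyme Ehhadh was 10.65 and 10.17 in the necrotic pools, 12.44 and 12.51 in the choline-fed corn-oil pools, 13.49 and 13.38 in the deficient fish-oil pools, and 13.45 and 13.42 in the choline-fed fish-oil pools. Fish-oil pools were highest and did not differ by choline (-0.00 ± 0.19), and the interaction was -2.06 ± 0.27 (adjusted p = 0.0032). The receptor gene Ppara had an interaction of -1.74 ± 0.31, lost without pool 2 of the choline-fed corn-oil kidneys (adjusted p = 0.0574), and the omega-hydroxylase Cyp4a1 one of -1.78 ± 0.41 (adjusted p = 0.0312), lost without any array but pool 1 of the necrotic kidneys (0.0509 to 0.113). Pdk4, which spares glucose, was not called (0.45 ± 0.25, adjusted p = 0.329). The 15 negative calls became 5 and 7 without pool 2 and pool 1 of the choline-fed corn-oil kidneys, 8 and 7 without pool 1 and pool 2 of the deficient fish-oil kidneys, 8 without pool 2 of the necrotic and 9 without pool 2 of the choline-fed fish-oil kidneys. The 4 positive calls became 2 in each fit that left out 1 array.

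Fatty acid and cholesterol synthesis gave 7 negative and 0 positive calls of 34 (median -0.52), led by acetyl-CoA synthetase Acss2 (-2.30 ± 0.27), and the 7 became 2 to 4 without any array but pool 1 of the choline-fed fish-oil kidneys. Choline, betaine and one-carbon metabolism gave 13 negative calls and 1 positive of 38 (median -0.61). Gamt, which makes creatine with a methyl group from S-adenosylmethionine, was 9.96 and 10.16 in the necrotic pools and 12.57 to 12.97 in the other 6, an interaction of -3.02 ± 0.25 (adjusted p = 0.000592). The organic cation transporter Slc22a2, which carries choline (-2.53 ± 0.24), the methyl buffer Gnmt (-2.42 ± 0.30) and cystathionine synthase Cbs (-2.40 ± 0.29) were also called.

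Bhmt, which spends betaine to remethylate homocysteine, was 9.49 and 8.31 in the necrotic pools, 11.43 and 11.56 in the choline-fed corn-oil pools, 12.06 and 11.72 in the deficient fish-oil pools, and 12.11 and 11.41 in the choline-fed fish-oil pools. Only the necrotic pools were low. The Bhmt interaction was -2.73 ± 0.59 (adjusted p = 0.0243), with the call lost without any array but pool 1 of the necrotic and of the choline-fed fish-oil kidneys (0.0524 to 0.0911). Some genes of choline uptake and use were not called, unlike Slc22a2 above. Choline kinase Chka was at 0.15 ± 0.20 and the rate-limiting Pcyt1a at 0.62 ± 0.21. Chdh, which oxidises choline, was at -0.06 ± 0.28 and the transporter Slc44a1 at 0.47 ± 0.21. The 13 negative calls became 8 and 7 without pool 1 and pool 2 of the choline-fed corn-oil kidneys and 8 without pool 2 of the deficient fish-oil kidneys. The positive call, Pld2 (0.84 ± 0.20), which frees choline from phosphatidylcholine, was lost without any array but pool 1 of the choline-fed fish-oil kidneys (adjusted p up to 0.129) and after median centring.

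Antioxidant and heme defence genes split in direction, and for several of them the choline-fed groups already differed by oil. Of 33 genes of this group, which NRF2 in part controls, 7 had positive and 7 negative calls (median 0.08). The group's mean level was 10.73 and 10.71 in the choline-fed corn-oil pools, 10.89 and 10.76 in the necrotic pools, and 11.45 to 11.67 in the 4 fish-oil pools. Hmox1, heme oxygenase-1, was 11.79 and 11.46 in the necrotic pools, 6.93 in each choline-fed corn-oil pool, 9.63 and 8.34 in the deficient fish-oil pools, and 8.47 and 9.64 in the choline-fed fish-oil pools. Fish-oil pools lay between the corn-oil groups whether choline was fed or not, and the Hmox1 interaction was 4.76 ± 0.67 (adjusted p = 0.0045). The cystine transporter Slc7a11 had one of 3.28 ± 0.56, with 6.82 and 5.30 in the deficient fish-oil pools. Negative calls included the growth inhibitor Osgin1 (-2.07 ± 0.27), the retinal dehydrogenase Aldh1a1 (-2.05 ± 0.24) and Gclc, the catalytic subunit of glutathione synthesis (-1.74 ± 0.22). The 7 negative calls became 3 or 4 without either choline-fed corn-oil pool, either deficient fish-oil pool or pool 2 of the choline-fed fish-oil kidneys.

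The choline-fed kidneys alone differed by oil at 54 probe sets, 0.185% of those tested. Of these 54, 27 also had a called interaction, against 8.72% of all probe sets. The oil difference in choline-fed kidneys is a part of the interaction and shares its arrays, so the overlap is in part built in. This grouping was made after the values were seen. Nqo1, a quinone reductase and classical NRF2 target, was 8.29 and 7.82 in the choline-fed corn-oil pools, 11.53 and 11.12 in the choline-fed fish-oil pools, 10.05 and 9.35 in the necrotic pools, and 10.57 and 10.90 in the deficient fish-oil pools. All 4 groups were apart: choline-fed fish-oil highest, then deficient fish-oil, necrotic and choline-fed corn-oil. Nqo1 rose by 1.64 ± 0.29 under corn oil, was 0.59 ± 0.29 lower under fish oil (not called), and had an interaction of 2.23 ± 0.41 (adjusted p = 0.014). That call was lost without pool 1 of the deficient fish-oil kidneys (adjusted p = 0.0537) or pool 2 of the choline-fed corn-oil kidneys (0.0624).

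Srxn1, which repairs oxidised peroxiredoxins, was 6.11 and 6.12 in the choline-fed corn-oil pools, 7.76 and 7.41 in the necrotic pools and 7.47 to 7.90 in the 4 fish-oil pools. Here the low group was the choline-fed corn-oil one, and the interaction of 1.68 ± 0.21 (adjusted p = 0.00303) came with a difference of 0.01 between deficient fish-oil and necrotic kidneys. The glutathione transferase Gstp1 (1.25 ± 0.18), the glutathione peroxidase Gpx2 (1.56 ± 0.21) and metallothionein Mt1 (1.28 ± 0.18 and 1.29 ± 0.18 by its 2 probe sets) were likewise lowest in the choline-fed corn-oil pools. Choline-fed corn-oil arrays lay outside the range of the other 6 for 779 of the called probe sets (30.6%), against 15.3% of all probe sets. These arrays enter the interaction, so the larger share follows in part from how the called probe sets were chosen.

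Of the 6 NRF2 targets looked up, 5 had a RefSeq promoter window (GRCr8), and 2 of them, Gpx2 and Gstp1, held TGACNNNGC, the core of the antioxidant response element, on either strand. The match in Gpx2 lies in chr6:101230028-101230056 and that in Gstp1 in chr1:210769748-210769776, both genes on the minus strand. Each is shown on the gene's strand 5′ to 3′, with the match in capitals, in Gpx2 read on the opposite strand:
Gpx2: acctggtttcGCTAAGTCAttctgggaat
Gstp1: tccactgtgtTGACTCAGCatccggggcg
They begin 13 and 61 bases before the start site, and the windows of Nqo1, Srxn1 and Slc7a11 held none. The letters occur in 12.2% of all promoter windows, 13.8% of those of measured genes, 15% of those with a positive call and 15.8% of those with a negative call.

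**Figure D4:**
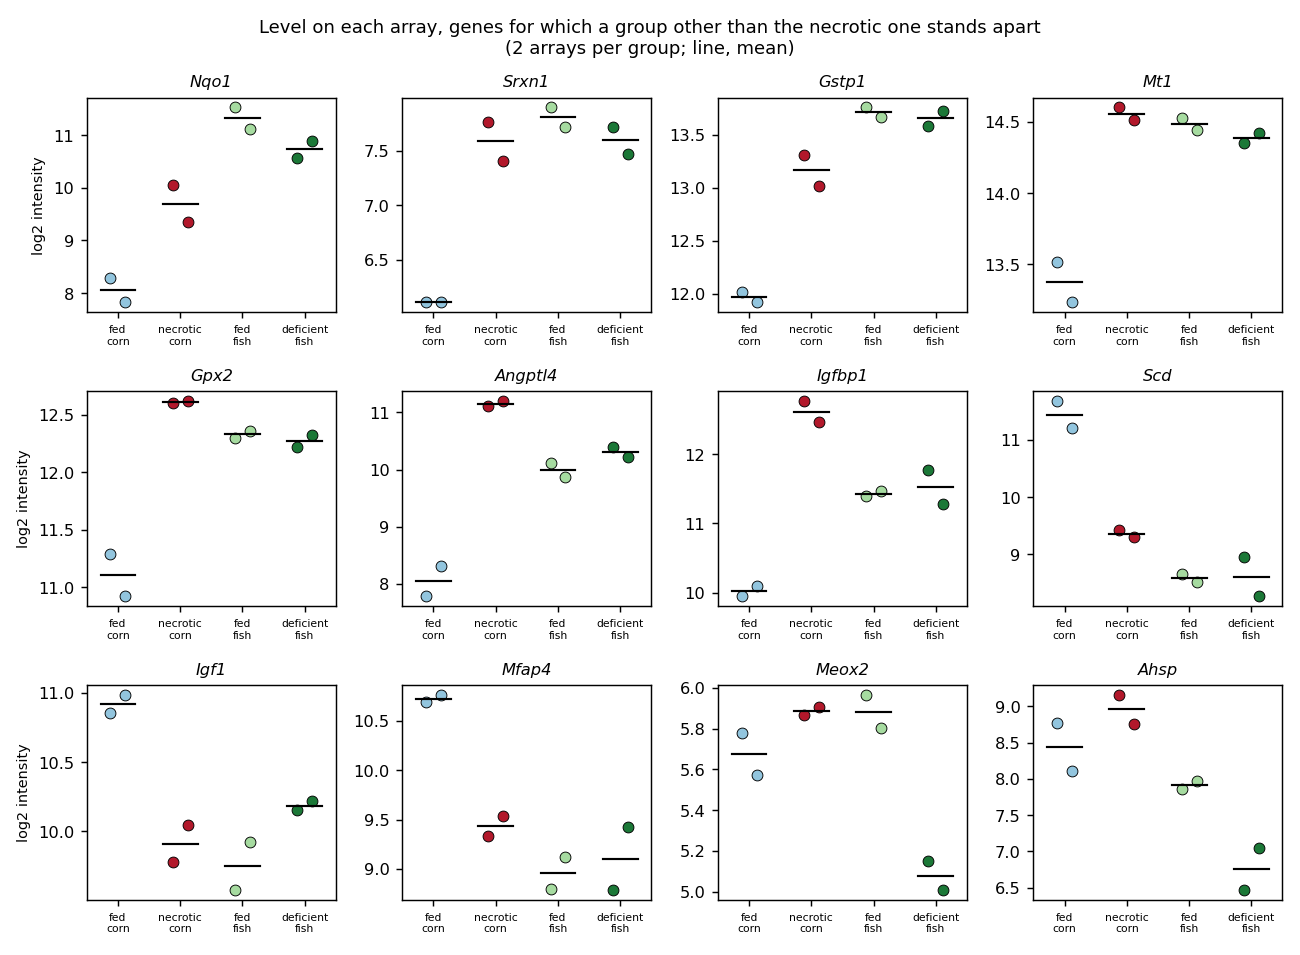
Log2 intensity of 12 genes on each of the 8 arrays, with a line at each group mean, for choline-fed corn-oil, necrotic, choline-fed fish-oil and deficient fish-oil kidneys. For Nqo1, Srxn1, Gstp1, Mt1, Gpx2, Angptl4 and Igfbp1 the choline-fed corn-oil pools are the lowest of the 8, for Scd, Igf1 and Mfap4 they are the highest, and for Meox2 and Ahsp the deficient fish-oil pools are the lowest.

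Angptl4, Igfbp1, Igf1 and Scd, also picked for this pattern after the values were seen, are described next. Angptl4, an inhibitor of lipoprotein lipase and a PPAR target, was 7.79 and 8.31 in the choline-fed corn-oil pools, 11.11 and 11.19 in the necrotic pools, 10.40 and 10.22 in the deficient fish-oil pools, and 10.11 and 9.87 in the choline-fed fish-oil pools. The choline-fed corn-oil pools were lowest and the necrotic highest, an interaction of 2.79 ± 0.28 (adjusted p = 0.00124). Igfbp1, which binds insulin-like growth factors, followed it (2.49 ± 0.28), and Igf1 itself ran the other way: 10.85 and 10.98 in the choline-fed corn-oil pools and 9.58 to 10.22 in the other 6 (-1.45 ± 0.22, adjusted p = 0.00645). Scd, the desaturase that makes oleate, was 11.68 and 11.20 in the choline-fed corn-oil pools, 9.42 and 9.30 in the necrotic pools, 8.95 and 8.27 in the deficient fish-oil pools, and 8.66 and 8.51 in the choline-fed fish-oil pools. The 2 fish-oil groups overlapped below the necrotic pools, and the Scd interaction was -2.10 ± 0.37 (adjusted p = 0.0121), lost without pool 1 of the choline-fed corn-oil kidneys (0.0515). In 19 of the 27 probe sets, deficient fish-oil and necrotic kidneys did not pass against each other. Across all called interactions the oil difference was larger among choline-fed than among deficient kidneys for 168 (6.59%). That share was not computed over all probe sets, so it does not set the called ones apart. Both oil differences are parts of the interaction. Deficient fish-oil and necrotic kidneys differed at 5763 probe sets, 19.7% of those tested.

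At 39 called probe sets, 31 positive and 8 negative, neither choline difference passed alone. That does not show from which arm these interactions came. The first example, Meox2, was dim, below the lowest array median of 7.28 in every pool. The homeobox gene Meox2 was 5.87 and 5.91 in the necrotic pools, 5.78 and 5.57 in the choline-fed corn-oil pools, 5.15 and 5.01 in the deficient fish-oil pools, and 5.97 and 5.80 in the choline-fed fish-oil pools. Only the deficient fish-oil pools were low, and the Meox2 interaction was 1.02 ± 0.17 (adjusted p = 0.00969), lost without pool 2 of the choline-fed corn-oil kidneys (0.0524). Ahsp, the chaperone of alpha haemoglobin, showed the same (1.68 ± 0.37, adjusted p = 0.0264), with 6.47 and 7.04 in the deficient fish-oil pools and 7.87 to 9.16 in the other 6. The Ahsp call was lost without pool 1 of the necrotic, pool 2 of the choline-fed corn-oil, pool 1 of the deficient or either pool of the choline-fed fish-oil kidneys (0.0645 to 0.0891).

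The pools of both arms separated in opposite directions at 580 of the 2548 called probe sets, against 2557 of all 29214 (8.75%). In the same direction they separated at 301 of the 2548, against 3113 of all 29214 (10.7%). A difference between 2 arms is larger where the arms are opposite, so the opposite share among called probe sets follows in part from how they were chosen. The neuropeptide Npy was 10.61 and 10.18 in the necrotic pools, 8.57 and 8.60 in the choline-fed corn-oil pools, 7.87 and 7.76 in the deficient fish-oil pools, and 8.68 and 8.99 in the choline-fed fish-oil pools. Deficient pools were above choline-fed pools under corn oil and below them under fish oil, an interaction of 2.82 ± 0.23 (adjusted p = 0.000607). Pla2g2a, a secreted phospholipase that frees arachidonate, had a difference of 1.15 ± 0.18 under corn oil and -0.96 ± 0.18 under fish oil, and an interaction of 2.11 ± 0.25 (adjusted p = 0.00219). No fish-oil difference of these genes passed on its own (adjusted p = 1).

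The other groups had fewer calls or mixed ones. The unfolded protein and ATF4 response had 9 positive and 3 negative calls of 32 (median 0.18). The largest positive ones were the amino acid transporter Slc7a5 (2.41 ± 0.24), the folate enzyme Mthfd2 (2.33 ± 0.27) and asparagine synthetase Asns (1.99 ± 0.26). The negative ones were the serine synthesis enzymes Psph (-1.57) and Psat1 (-1.06) and the membrane protein Herpud1 (-0.90), and a dimmer probe set of Psat1 was at -0.65 and not called. Psat1 lost its call without either choline-fed corn-oil pool (adjusted p up to 0.0576), and Herpud1 without any array but pool 1 of the necrotic and of the choline-fed fish-oil kidneys (up to 0.0719). The stress factor Ddit3 was at 0.34 ± 0.23 and not called. The 3 negative calls became 1 without either choline-fed corn-oil pool, and 5 with array weights or with only the brighter 50% of probe sets tested. Heat shock genes had 0 positive and 2 negative calls of 16 (median -0.47) with 10 at an unadjusted limma p under 0.05. The calls were the co-chaperones Chordc1 (-1.39 ± 0.24) and Dnaja1 (-0.81 ± 0.19), and 4 to 6 genes were called with the dimmer 25% or 50% of probe sets left out, a trend and robust prior or array weights. The call of Dnaja1 was lost without any array but pool 1 of the necrotic kidneys (adjusted p from 0.0592 to 0.124).

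Glycolysis and hypoxia genes had 8 positive and 2 negative calls of 27 (median 0.31), led by the lactate exporter Slc16a3 (3.41 ± 0.36) and adrenomedullin (Adm, 2.16 ± 0.19). The 8 became 4 without pool 1 and 5 without pool 2 of the choline-fed corn-oil kidneys, and 5 without pool 2 of the deficient or pool 1 of the choline-fed fish-oil kidneys, and the 2 negative calls became 0 without pool 1 of the choline-fed corn-oil or pool 2 of the deficient fish-oil kidneys. Eicosanoid metabolism had 6 calls each way of 32 (median -0.20). Pla2g7, which degrades platelet-activating factor, was positive (2.40 ± 0.35) and the prostaglandin-degrading Hpgd negative (-2.07 ± 0.37), while cyclooxygenase-2 (Ptgs2) was at -0.78 ± 0.26 and not called. The Hpgd call was lost without pool 1 of the choline-fed corn-oil kidneys (adjusted p = 0.0516), and in the fits without 1 array the positive calls numbered 2 to 4 and the negative ones 2 to 5.

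The renin-angiotensin group had 1 positive and 4 negative calls of 19 (median -0.14). The positive one, endothelin Edn1 (1.26 ± 0.29), was lost in every fit without 1 array (adjusted p up to 0.124), and the mineralocorticoid receptor Nr3c2 was at -1.37 ± 0.20. Interferon and antigen presentation genes had 1 call each way of 26 (median 0.02). The peptide transporter Tap1 (0.89 ± 0.19) passed only without pool 2, and the antiviral Mx2 (-2.06 ± 0.47) only without pool 1, of the choline-fed fish-oil kidneys among the fits that left out 1 array (adjusted p up to 0.0925 and 0.107 in the others).

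Markers of other tissues gave few calls. Erythroid genes had 2 positive calls of 10 (median 0.51), Ahsp and Hemgn (1.10 ± 0.22), and the Hemgn call was lost without any array but pool 1 of the necrotic and of the deficient fish-oil kidneys (adjusted p from 0.0506 to 0.0901). Adipocyte genes had 0 of 10 (median 0.04), with 2 at an unadjusted limma p under 0.05, and adrenal genes 0 of 10 (median 0.32), with 3. Brown fat Ucp1, however, was 7.35 and 5.89 in the necrotic pools and 8.55 to 11.13 in the other 6 (interaction -3.28 ± 1.07, adjusted p = 0.102), and the adrenal steroid enzyme Cyp11b1 was below 5 in every pool.

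The deficient corn-oil kidneys without the word necrotic lay between the choline-fed and the necrotic means for 2083 of the called probe sets (81.8%), against 26.2% of all. Nearly all called probe sets have a wide gap between these means, so the larger share follows in part from how they were chosen. By itself the share does not show that the kidneys without the word necrotic were intermediate. Placed in the same contrast, which shares the other 6 arrays, the kidneys without the word necrotic gave 30 called probe sets of the 29214 tested. Each of the 30 was also called with the necrotic kidneys. Fga is one, at 2.95 there and 2.66 here, and Olr1 another, at 3.82 and 3.86.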

How the data were processed

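RNA from 10 kidney pools of 3 rats, in 5 groups of 2, was hybridised to 1-colour arrays. The authors deposited log2 intensity values normalized by RMA, per the submitters' processing notes; which software and probe sets were used for it is not stated there. The deposited values were used as deposited, and 0 value columns lacked a sample. The number of arrays limits the precision.

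Group means were fitted to all 10 arrays with limma 3.58.1 in R 4.3.3 (lmFit, eBayes; 5 residual and 3.594 prior degrees of freedom). The interaction and the simple differences were contrasts of that fit, two-sided, with Benjamini-Hochberg adjustment over 29214 probe sets and a threshold of 0.05. The labels do not say that pools of a group were independent beyond being separate samples. Scripts were tested on simulated data. Summaries were made in Python 3.11.15 with pandas 2.3.3 and numpy 2.4.6, and plots with matplotlib 3.10.9.

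The platform annotation listed 15633 probe sets; 15310 had 1 symbol, 323 several, and 13581 were not listed. Of the symbols, 15279 probe sets matched the current RefSeq table (GRCr8), and 527 genes had more than 1 probe set. Promoter sequences are RefSeq's for GRCr8.

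Named genes were the 15 largest called interactions in each direction with 1 symbol, up to 4 called members with the largest interaction in each of 32 gene lists, 15 chosen genes and up to 4 genes per pattern. Other list members, the grouping by oil in choline-fed kidneys and the promoter genes were chosen after values were seen. The contrast, the members and the lists were chosen with earlier results of these data known. Of the chosen genes, Pemt was not analysed here. Alternatives were the 8 arrays alone, a replicate block, median centring, quantile normalization, cyclic loess, leaving out the dimmer 25% or 50% of probe sets, a trend and robust prior, array weights, and leaving out each of the 8 arrays.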

Additional observations from a re-analysis of the deposited data

Results flagged for a closer look

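At 580 of the 2548 called probe sets the pools of the 2 arms separated in opposite directions, against 2557 of all 29214 (8.75%). Deficient pools were above choline-fed pools under 1 oil and below them under the other. The interaction tests whether the 2 choline differences are unequal and not whether they are opposite, so this reversal was not tested. With both differences at least 0.5 on the log2 scale and 1 gene symbol, 13 probe sets separated in opposite directions. That count was not made over all probe sets. A called interaction is larger where the arms are opposite, so these 13 are only a description. The interaction was positive for Npy (2.82), Mthfd2 (2.62 and 2.33 by its 2 probe sets), Nqo1 (2.23), Pla2g2a (2.11), Cd226 (1.64), Plk3 (1.60) and Lgals5 (1.38). It was negative for Cacng5 (-5.90), Prima1 (-3.43), Kcnj13 (-3.42), Stc1 (-2.82) and Id4 (-1.80). No fish-oil difference of these genes passed on its own.

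The deficient corn-oil kidneys without the word necrotic, which the interaction leaves out, gave 30 called probe sets of the 29214 tested when set in the place of the necrotic kidneys.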

How the results depend on the processing

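Each setting other than leaving out 1 array left the counts of called, positive, negative and at least 2-fold interactions within 1.5 times, and no named gene that was called changed sign under any setting. Median centring turned the median over all probe sets from 0.0755 to -0.0364, and with it the medians near 0 of 4 gene groups: NRF2 and heme defence from 0.08 to -0.03, lymphocyte from 0.03 to -0.08, adipocyte from 0.04 to -0.07, and interferon and antigen presentation from 0.02 to -0.10. The medians of the last 3 also changed sign under quantile normalization, under cyclic loess and without some arrays, so these 4 groups have no settled direction. Leaving out the dimmer 50% of probe sets gave a median over those tested of -0.0015. Without 1 array the called probe sets numbered 955 to 1847, the positive ones 379 to 855, the negative ones 566 to 1042 and those at least 2-fold 917 to 1492. Of the named genes, 50 lost their call without at least 1 array and 10 under another setting. The replicate numbers do not pair the pools: replicate differences correlated between groups at -0.173 to 0.136. With a replicate block 1031 positive and 1305 negative interactions were called, 2193 of them shared with the fit without it. With 2 pools a group, small interactions were not detectable.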
